A study of Homo sapiens with 2 samples.

Results

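The genes of oxidative phosphorylation were measured in 2 cultures of ACHN, a long-established line of human kidney cancer cells labelled as clear cell renal carcinoma. One culture carried an shRNA that targets Kindlin-2 and the other a control shRNA. FERMT2 is the gene of Kindlin-2, an adaptor protein at integrin adhesions. The genes were chosen by symbol: those starting with NDUF, UQCR, ATP5 or COX and a digit, together with SDHA, SDHC, SDHD, CYC1 and CYCS. The rule gave 97 of 18417 genes, and it used no measured value. Each group held 1 array (n = 1), a Human Gene 1.0 ST array read as log2 RMA values, and both cultures grew in medium with G418, a selection drug. The labels name a single shRNA against Kindlin-2 and do not say whether the cells came from 1 clone. In bulk RNA of this kind, fewer cells of a type and less RNA per cell cannot be told apart. The question was how transcript levels in Kindlin-2-depleted cells compare with those in control cells. With 1 array a group there was no replicate check, so no test was possible, and every difference below, given as Kindlin-2 shRNA minus control shRNA on the log2 scale, describes these 2 arrays.

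Oxidative phosphorylation passes electrons from NADH (complex I) or succinate (complex II) through ubiquinone, complex III and cytochrome c to oxygen at complex IV. The protons pumped on the way drive ATP synthesis by complex V. Core subunits of several complexes are encoded in mitochondrial DNA and were not analysed here, while the genes below are nuclear. Proximal tubule epithelium, from which clear cell renal carcinoma is thought to arise, depends on respiration, and many such carcinomas shift towards glycolysis.

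The targeted gene FERMT2 (cluster 7979204, a cluster being the array's unit for a transcript) stood at 8.26 in Kindlin-2 shRNA cells and 9.37 in control cells on the log2 scale, or at 46.4% of the control level. Genes whose higher value fell short of 6.52, the median of the whole table, were set aside as dim, which left 11822 genes, called kept below. Epithelial markers were present, with PAX8 at 11.29 in Kindlin-2 shRNA cells and 11.43 in control cells, and KRT8 at 12.11 in Kindlin-2 shRNA cells and 12.65 in control cells. Of 8 kidney and epithelial markers 6 were kept. All 6 were lower in Kindlin-2 shRNA cells, with differences between -1.96 (CDH1, E-cadherin) and -0.13. LRP2 and CUBN were under the floor of 6.52, at 4.59 and 4.43 in Kindlin-2 shRNA cells and 4.70 and 4.57 in control cells. None of the 5 endothelial markers reached the floor (4.68 to 5.78 in Kindlin-2 shRNA cells and 4.81 to 5.96 in control cells). Of 5 leukocyte markers only CD68, a lysosomal protein, did, at 10.25 in Kindlin-2 shRNA cells and 9.01 in control cells, while the leukocyte-defining PTPRC had 3.54 in Kindlin-2 shRNA cells and 3.53 in control cells. Of 6 fibroblast and smooth muscle markers 3 were kept. ACTA2 had 9.64 in Kindlin-2 shRNA cells and 10.40 in control cells, PDGFRB had 6.31 in Kindlin-2 shRNA cells and 7.08 in control cells, and COL1A1 had 7.45 in Kindlin-2 shRNA cells and 7.28 in control cells. DCN had 3.39 in Kindlin-2 shRNA cells and 3.46 in control cells, and LUM 3.32 in Kindlin-2 shRNA cells and 3.27 in control cells. The part of these markers in the results below was not tested.

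The 97 genes comprised 34 subunits of complex I, 3 of complex II, 8 of complex III, cytochrome c, 17 of complex IV and 16 of complex V. A further 13 were assembly factors, which build the enzymes without staying in them. The other 5 were the complex V inhibitor ATP5IF1, the ATP5MG-like gene ATP5MGL, the non-coding transcript NDUFV1-DT, and the gene copies ATP5F1EP2 and UQCRBP1, so the symbols took in more than subunits and assembly factors. Of the 97, 86 were kept and 11 were under the floor. UQCRH and NDUFAF6 were kept through their control value alone.

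Sequences before the transcription start are shown for the 2 genes that differed by at least 1.5-fold (NDUFB2 and COX14), for the genes with the lowest difference among those that hold a searched motif wholly within the 250 bases before the start (NDUFA11 for NRF1, COX6A1 for ETS factors and ATP5PF for YY1), and for COX7B, the subunit with the highest difference. They are the 250 bases before the start, 5′ to 3′ on the gene's strand, from RefSeq on GRCh38.p14. Capitals mark motifs, where present. NDUFA8 holds the NRF1 letters and NDUFA9 the YY1 letters only across or after the start, so neither is shown although both had lower differences than the gene shown for that motif.
NDUFB2, chr7:140696458-140696707, plus strand: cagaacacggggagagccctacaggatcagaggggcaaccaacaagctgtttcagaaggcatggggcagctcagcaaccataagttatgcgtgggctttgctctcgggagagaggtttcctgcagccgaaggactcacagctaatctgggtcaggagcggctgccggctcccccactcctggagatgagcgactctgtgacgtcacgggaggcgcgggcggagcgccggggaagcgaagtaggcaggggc
COX14, chr12:50111986-50112235, plus strand: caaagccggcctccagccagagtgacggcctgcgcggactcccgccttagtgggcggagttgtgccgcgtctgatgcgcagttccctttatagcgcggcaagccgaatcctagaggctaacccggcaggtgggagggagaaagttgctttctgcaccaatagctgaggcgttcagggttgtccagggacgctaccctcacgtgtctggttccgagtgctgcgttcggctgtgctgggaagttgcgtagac
NDUFA11, chr19:5903791-5904040, minus strand: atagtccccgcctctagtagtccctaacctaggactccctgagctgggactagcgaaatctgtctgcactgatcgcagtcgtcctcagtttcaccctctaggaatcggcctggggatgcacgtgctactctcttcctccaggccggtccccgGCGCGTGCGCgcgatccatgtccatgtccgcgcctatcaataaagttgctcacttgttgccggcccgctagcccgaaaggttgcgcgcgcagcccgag
COX6A1, chr12:120437863-120438112, plus strand: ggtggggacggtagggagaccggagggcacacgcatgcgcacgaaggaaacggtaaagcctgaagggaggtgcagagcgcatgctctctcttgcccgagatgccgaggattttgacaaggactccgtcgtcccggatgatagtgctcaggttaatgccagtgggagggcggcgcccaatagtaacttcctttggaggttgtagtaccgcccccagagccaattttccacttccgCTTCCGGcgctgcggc
ATP5PF, chr21:25735055-25735304, minus strand: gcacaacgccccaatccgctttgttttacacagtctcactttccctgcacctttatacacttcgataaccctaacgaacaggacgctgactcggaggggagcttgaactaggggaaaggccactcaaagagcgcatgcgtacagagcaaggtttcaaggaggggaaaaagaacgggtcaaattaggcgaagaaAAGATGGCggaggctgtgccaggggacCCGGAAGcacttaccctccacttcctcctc
COX7B, chrX:77899218-77899467, plus strand: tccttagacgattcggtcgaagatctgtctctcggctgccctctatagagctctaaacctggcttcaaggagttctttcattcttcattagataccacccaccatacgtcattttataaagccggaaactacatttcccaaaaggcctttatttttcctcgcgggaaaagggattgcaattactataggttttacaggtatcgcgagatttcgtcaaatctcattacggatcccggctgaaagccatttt

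Letters typical of NRF1, ETS factors (the family of GABP) and YY1, regulators known to act on respiratory gene promoters, were searched for on both strands as GCGC, any base and TGCGC for NRF1, CCGGAAG for ETS factors and AAGATGGC for YY1. The ETS and YY1 letters can share bases, but in 0 of these genes did matches of different motifs do so. The search covered 250 bases before to 50 bases after the start of the 80 genes that had an entry. The NRF1 letters were found in 22.5% of them against 6.28% of all 27305 promoters of that length, the ETS letters in 27.5% against 10.7%, and the YY1 letters in 13.8% against 3.03%. At least 1 of the 3 was found in 42 of the 80 genes (52.5%), against 17.9% of all promoters. Neither NDUFB2 nor COX14 held any of them in this window, and nor did COX7B. Of the 12 genes with an entry that were lower by at least 0.32 on the log2 scale 8 held one. Of the 23 that were above 0, 11 did, and of the 39 others kept, 20 did. A match describes the letters and not a bound site.

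The genes kept lay slightly lower in Kindlin-2 shRNA cells and within a narrow range. Their median difference was -0.11, against -0.02 for all genes kept, and 60 of the 86 (69.8%) were below 0, against 53.2% of all genes kept. The SD of the difference over the 86 was 0.21, against 0.40 over all genes kept. No gene was 1.5-fold higher, where 5.1% of all genes kept were. NDUFB2 and COX14 were at least 1.5-fold lower, which is 2.33% of the 86, against 5.23% of all genes kept. At a difference of at least 0.32, a limit used below for single genes, 0 were higher (13.3% of all genes kept) and 15 lower (17.4%, against 15.7%). None differed by 2-fold, where 1.41% of all genes kept were higher and 1.26% lower. Before chromosome position was taken into account, the upper side was thus empty at each of these limits. The share on the lower side was near or under that of all genes kept. All genes kept whose mean lay between the quartiles of these genes had a median of -0.02 and an SD of 0.41.

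**Figure D1:**
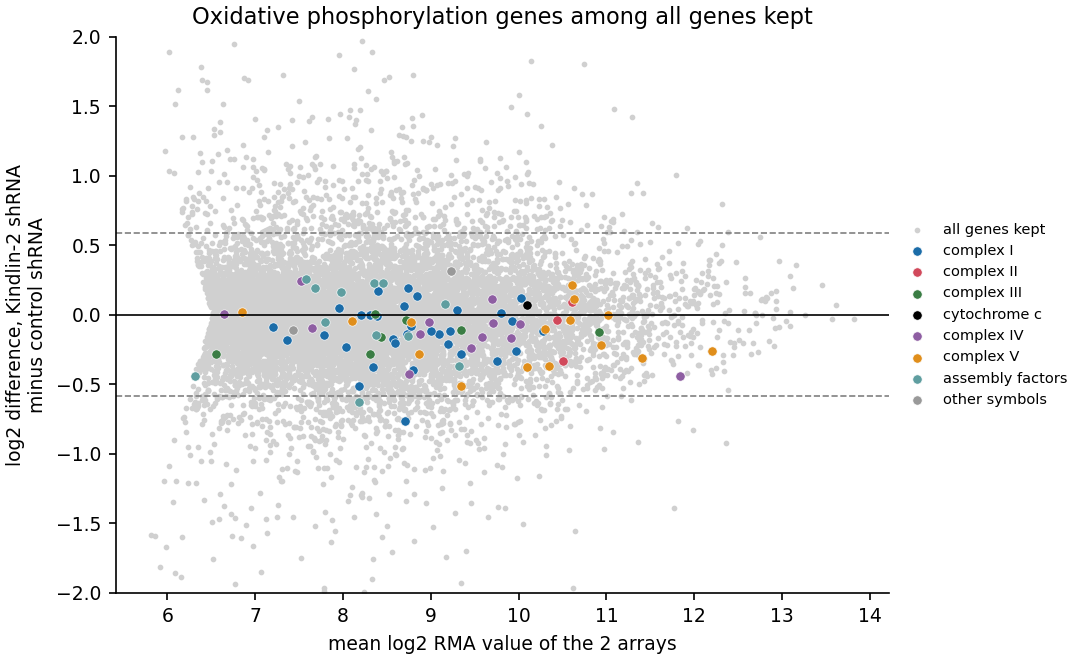
Log2 difference (Kindlin-2 shRNA minus control shRNA, 1 array each) against the mean log2 RMA value of the 2 arrays. Grey points are all 11822 genes kept (38 lie beyond the vertical axis), coloured points the 86 oxidative phosphorylation genes, and dashed lines mark 1.5-fold. The coloured points lie between -0.77 and 0.31.

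Complex I takes electrons from NADH in an arm that reaches into the matrix and pumps protons in an arm within the membrane. Its 33 subunits kept had a median difference of -0.12, with 23 below 0 and 10 above. Among the core subunits of the matrix arm, NDUFS8, which carries iron-sulfur clusters, had 9.59 in Kindlin-2 shRNA cells and 9.93 in control cells (difference -0.34). NDUFV1, which binds NADH, had 9.09 in Kindlin-2 shRNA cells and 9.29 in control cells (-0.21). NDUFS7 differed by -0.15, NDUFV2 by -0.04, NDUFS1 by 0.01 and NDUFS3 by less than 0.01. The core subunits were thus close to the control level or lower on these arrays. The value of NDUFV2 comes from a cluster numbered among those of chromosome 19, and its cluster numbered among those of its own chromosome 18 differed by 0.07.

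The accessory subunits of the matrix arm gave a like picture, with 6 of 8 below 0 and a median of -0.11. NDUFA9, which stabilises the junction of the arms, was lowest, at 9.90 in Kindlin-2 shRNA cells and 10.28 in control cells (-0.38). NDUFA12 was highest, at 10.09 in Kindlin-2 shRNA cells and 9.97 in control cells (0.12). NDUFS4 was under the floor, at 6.36 in Kindlin-2 shRNA cells and 6.38 in control cells.

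The membrane arm held the largest difference of all members. NDUFB2, an accessory subunit of that arm (cluster 8136602), had 8.32 in Kindlin-2 shRNA cells and 9.09 in control cells, a difference of -0.77, or 1.70-fold lower. NDUFA8, an accessory subunit of the intermembrane space side, had 7.93 in Kindlin-2 shRNA cells and 8.44 in control cells (-0.51, 1.42-fold lower). Both lie on chromosomes whose genes were lower as a whole, as given below. NDUFA11 differed by -0.40 and NDUFB7 by -0.37. At the other end NDUFC1 differed by 0.17 and NDUFB1 by 0.13, and NDUFAB1, an acyl carrier protein found in both arms, by 0.19. Of the 18 accessory subunits of the membrane arm 13 were below 0, and their median was -0.15.

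**Figure D2:**
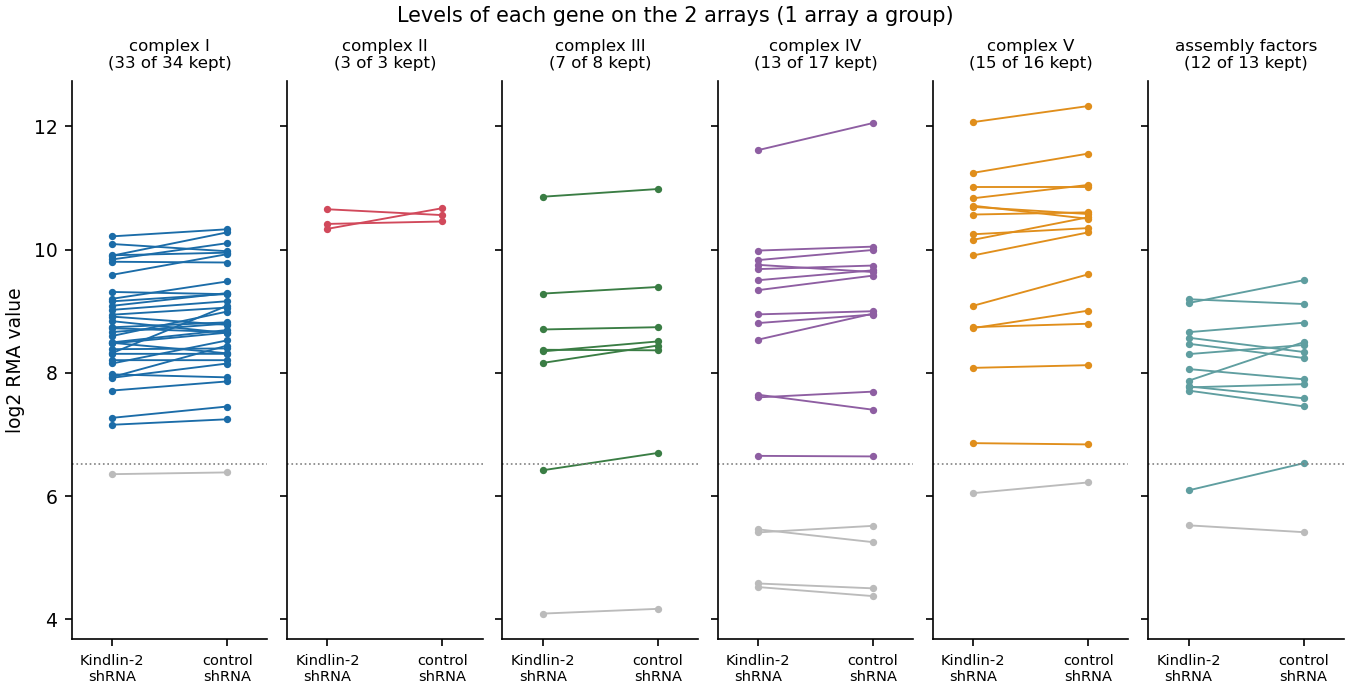
Log2 RMA values of every subunit and assembly factor on the Kindlin-2 shRNA array (left of each panel) and the control shRNA array (right), 1 line a gene. Grey lines are genes under the floor of 6.52 (dotted). Most lines run close to level, and the steepest one in complex I is NDUFB2, at 8.32 in Kindlin-2 shRNA cells and 9.09 in control cells.

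Complex II, which oxidises succinate, was represented by 3 subunits, and the value of SDHC depended on the transcript cluster. The flavoprotein SDHA had 10.65 in Kindlin-2 shRNA cells and 10.56 in control cells (0.09). The membrane anchor SDHD had 10.34 in Kindlin-2 shRNA cells and 10.67 in control cells in its brighter cluster (-0.34), and 8.79 in Kindlin-2 shRNA cells and 9.18 in control cells in its other cluster (-0.39). The anchor SDHC had 10.42 in Kindlin-2 shRNA cells and 10.46 in control cells in its brighter cluster (-0.04), but 8.48 in Kindlin-2 shRNA cells and 7.99 in control cells in its other cluster (0.49). The SDHD clusters thus ran the same way, and the SDHC clusters did not. The brighter cluster of either gene is numbered among clusters of another chromosome than the gene's own (1 for SDHD and 17 for SDHC), and signal from copies of these genes could not be told apart here. Over all 343 genes with exactly 2 clusters at or above the floor, the clusters' differences lay a median of 0.07 apart, and the 90th percentile of that gap was 0.36.

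In complex III, which passes electrons from ubiquinol to cytochrome c, 6 of 7 subunits kept were below 0, with a median of -0.12. Cytochrome c1 (CYC1) had 9.29 in Kindlin-2 shRNA cells and 9.39 in control cells (-0.11). The core proteins UQCRC1 and UQCRC2 differed by 0.01 and -0.12. The small subunits UQCR11 and UQCRH were lowest, both at -0.28. UQCRH, at 6.42 in Kindlin-2 shRNA cells and 6.70 in control cells, was kept through its control value alone. A brighter cluster annotated to UQCRH together with UQCRHL and GNA13 had 9.58 in Kindlin-2 shRNA cells and 9.74 in control cells (-0.16). UQCRB was under the floor, at 4.09 in Kindlin-2 shRNA cells and 4.17 in control cells. None of the 7 reached a difference of 0.32. Cytochrome c itself (CYCS), the mobile carrier, had 10.13 in Kindlin-2 shRNA cells and 10.06 in control cells (0.07).

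Complex IV, cytochrome c oxidase, had 13 of 17 subunits kept, with 10 below 0 and a median of -0.09. COX6A1, the widely expressed form of subunit VIa, had 11.61 in Kindlin-2 shRNA cells and 12.05 in control cells (-0.44), and a second cluster, numbered among those of chromosome 6 although the gene lies on 12, gave the same difference. With the median of 50 neighbouring genes subtracted COX6A1 stood at -0.11. COX5B had 8.54 in Kindlin-2 shRNA cells and 8.96 in control cells (-0.42). These were the only subunits of complex IV that were lower by at least 0.32. COX7B was highest, at 7.65 in Kindlin-2 shRNA cells and 7.40 in control cells (0.24), followed by COX7A2 (0.12). COX4I1 differed by -0.14, COX6B1 by -0.24 and COX8A by -0.06, and COX7A2L, which takes part in respiratory supercomplexes, by -0.06.

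Forms of complex IV subunits that are known from muscle, lung or testis were under the floor on both arrays for 4 of 6 genes. COX6A2, the muscle form, had 7.60 in Kindlin-2 shRNA cells and 7.70 in control cells. COX4I2, a form known from lung and from low oxygen, had 6.65 in Kindlin-2 shRNA cells and 6.64 in control cells. COX7A1, COX6B2, COX7B2 and COX8C were under the floor, with values between 4.38 and 5.52 over both arrays. None of these 6 forms differed by 0.32, and no form gained while its partner lost by that amount.

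Complex V, the ATP synthase, had 12 of 15 subunits kept below 0, with a median of -0.10. The 4 genes of its catalytic F1 head and central stalk with a cluster of their own were lower in Kindlin-2 shRNA cells. ATP5F1E, the epsilon subunit of the central stalk, was measured only in a cluster annotated also to a read-through transcript and left out of the 97. This cluster had 8.17 in Kindlin-2 shRNA cells and 7.96 in control cells (0.21), and no value with neighbours subtracted was computed for it. Its number lies between those of UQCC1 on chromosome 20 and NDUFV3 on chromosome 21. All genes kept of these chromosomes had medians of 0.26 and 0.08. The catalytic beta subunit ATP5F1B had 12.07 in Kindlin-2 shRNA cells and 12.33 in control cells (-0.26), and the alpha subunit ATP5F1A had 10.83 in Kindlin-2 shRNA cells and 11.05 in control cells (-0.22). The gamma subunit ATP5F1C had 11.25 in Kindlin-2 shRNA cells and 11.56 in control cells (-0.31), and the delta subunit ATP5F1D 9.09 in Kindlin-2 shRNA cells and 9.60 in control cells (-0.51, 1.42-fold lower). The median of the 4 was -0.29, against -0.04 for the 9 genes of the peripheral stalk and membrane part. With the median of 50 neighbouring genes subtracted ATP5F1B stood at -0.05, and ATP5F1A, ATP5F1C and ATP5F1D between -0.41 and -0.22. The 3 genes that encode the same c-ring protein differed from one another, with ATP5MC2 at 9.91 in Kindlin-2 shRNA cells and 10.28 in control cells (-0.37), ATP5MC1 at 10.69 in Kindlin-2 shRNA cells and 10.58 in control cells (0.11), and ATP5MC3 under the floor (6.05 in Kindlin-2 shRNA cells and 6.22 in control cells). ATP5MC2 stood at -0.12 with the median of 50 neighbouring genes subtracted.

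In the rest of complex V the differences lay between -0.37 and 0.21. ATP5MF was lowest, at 10.16 in Kindlin-2 shRNA cells and 10.53 in control cells, and stood at -0.10 with neighbours subtracted. ATP5PF, a coupling factor of the peripheral stalk whose promoter is shown above, had 8.73 in Kindlin-2 shRNA cells and 9.01 in control cells (-0.28). ATP5PO, which joins the peripheral stalk to the F1 head, had 11.02 in both. ATP5MK was highest, at 10.71 in Kindlin-2 shRNA cells and 10.50 in control cells (0.21), in a cluster numbered among those of the X chromosome, and its cluster numbered among those of its own chromosome differed by -0.03. The inhibitor ATP5IF1 had 7.37 in Kindlin-2 shRNA cells and 7.48 in control cells (-0.11).

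**Figure D3:**
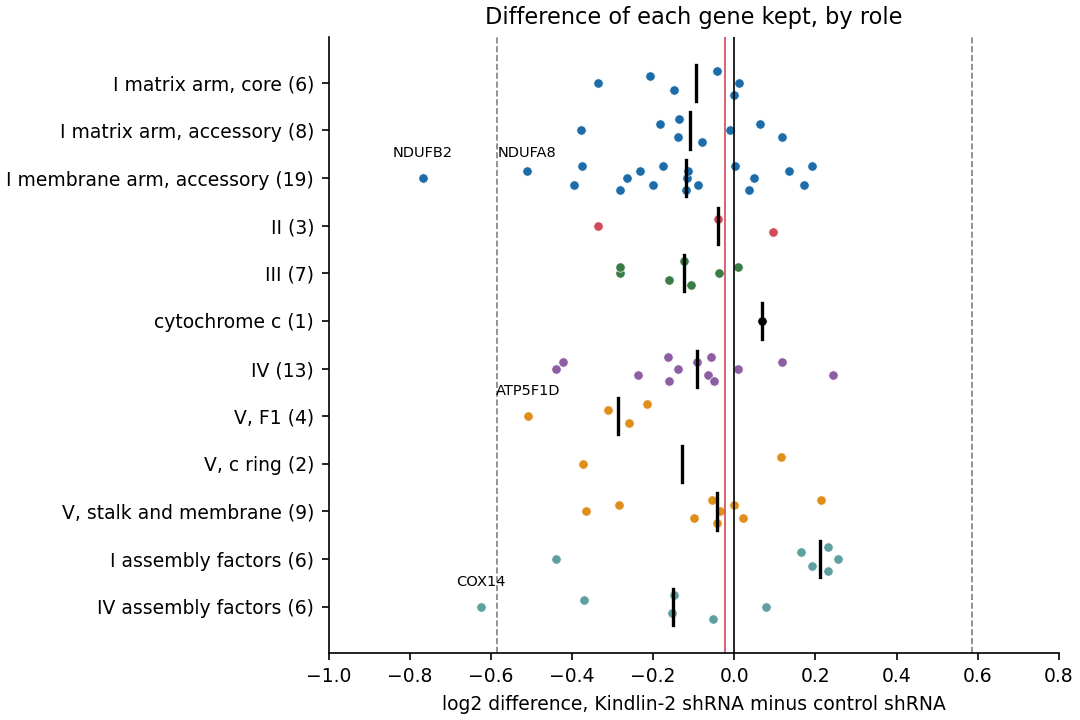
Log2 difference of each gene kept, by its role, with the number of genes in brackets. Black bars are medians, the red line is the median of all genes kept (-0.02) and dashed lines mark 1.5-fold. The 4 F1 genes plotted lie below 0 (median -0.29), and 5 of the 6 complex I assembly factors with NDUFAF symbols lie above it.

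The assembly factors chosen by symbol differed in both directions. Of the 6 complex I factors kept 5 were higher in Kindlin-2 shRNA cells, and the median of the 6 was 0.21. NDUFAF2 had 7.71 in Kindlin-2 shRNA cells and 7.46 in control cells (0.26), but its other cluster differed by 0.06. NDUFAF7, a methyltransferase, had 8.57 in Kindlin-2 shRNA cells and 8.34 in control cells (0.23). NDUFAF3 differed by 0.23, NDUFAF1 by 0.19 and NDUFAF4 by 0.17, none of them by 0.32. NDUFAF6 was the exception, at 6.09 in Kindlin-2 shRNA cells and 6.53 in control cells (-0.44), and NDUFAF5 was under the floor. With the median of 50 neighbouring genes subtracted NDUFAF4 stood at -0.04 and the median of the 6 was 0.11. Over all 12 assembly factors kept the median was 0.01 and the mean -0.05, so the direction depended on the summary.

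Of the 6 complex IV factors chosen by symbol 5 were lower in Kindlin-2 shRNA cells, with a median of -0.15. COX14, which acts in the synthesis of the mitochondrially encoded COX1 protein (cluster 7955358), had 7.87 in Kindlin-2 shRNA cells and 8.50 in control cells, a difference of -0.62, or 1.54-fold lower. COX15, an enzyme of heme A synthesis, had 9.13 in Kindlin-2 shRNA cells and 9.50 in control cells (-0.37). COX10, which acts in the step before it, had 9.19 in Kindlin-2 shRNA cells and 9.12 in control cells (0.08). The enzymes of heme A synthesis thus did not run together. COX11, COX20 and COX18 differed by -0.15, -0.15 and -0.05.

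Position on the chromosomes moved with the difference. All genes kept of chromosomes 7, 9 and 12 had medians of -0.22, -0.31 and -0.21. The 12 oxidative phosphorylation genes of these chromosomes had a median of -0.37, and both genes that were 1.5-fold lower (NDUFB2 on 7, COX14 on 12) were among them. The other 74 kept had a median of -0.09, with 51 below 0 and none 1.5-fold lower. With the chromosome's median subtracted NDUFB2 stood at -0.55 and COX14 at -0.41, so neither reached 1.5-fold, and the median of the 86 was -0.10. Of the 15 genes lower by at least 0.32, 6 stayed so with the chromosome's median subtracted (NDUFB2, COX5B, ATP5F1D, NDUFAF6, COX14 and COX15). With the median of 50 neighbouring genes subtracted 6 stayed so (NDUFB2, NDUFB7, SDHD, COX5B, ATP5F1D and COX14). ATP5PF came to be lower by that limit under both, at -0.36 and -0.40, and UQCRH with neighbours subtracted, at -0.34. On the upper side NDUFB6 reached it under both, at 0.36 and 0.40, and NDUFA12 with the chromosome's median subtracted, at 0.33. Chromosome 19 as a whole stood at a median of -0.09, with 65.9% of its genes kept below 0. Of its 9 oxidative phosphorylation genes kept 8 (88.9%) were below 0, with a median of -0.24. Their median was -0.14 with the chromosome's median subtracted and -0.16 with neighbours subtracted. The part of chromosome copy number in these differences was not tested.

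**Figure D4:**
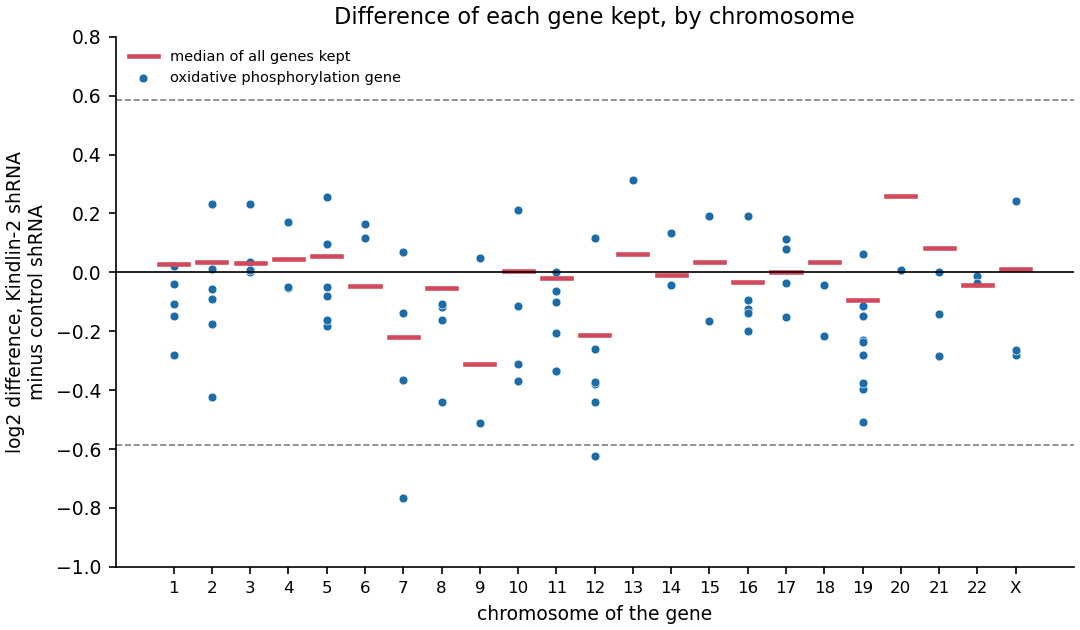
Log2 difference of each gene kept (blue points) by chromosome, with the median of all genes kept on that chromosome (red bars). Dashed lines mark 1.5-fold. The lowest points lie on chromosomes 7 and 12, whose own medians are -0.22 and -0.21.

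Other genes of mitochondrial respiration differed in both directions. Of 31 assembly factors with other names, none was 1.5-fold apart, and their median was -0.06 (0.025 with neighbours subtracted). Complex I factors among them included ACAD9 (0.17), TIMMDC1 (0.13) and TMEM126B (0.01) above 0, and ECSIT (-0.17), NUBPL (-0.07) and TMEM186 (-0.21) below it. The highest were FOXRED1 of complex I, at 7.64 in Kindlin-2 shRNA cells and 7.12 in control cells (0.52), and the complex III factors UQCC1 (0.48) and TTC19 (0.47). UQCC1 lies on chromosome 20, whose genes kept stood at 0.26 (median). The lowest were ATPAF2 of complex V, at 8.01 in Kindlin-2 shRNA cells and 8.49 in control cells (-0.48), and COA3 of complex IV (-0.46), which binds COX14. Neither direction prevailed in this list, with 14 above 0 and 17 below.

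Among 19 regulators of respiratory genes, the coactivator PPARGC1A (PGC-1alpha) had 7.81 in Kindlin-2 shRNA cells and 8.68 in control cells, 1.83-fold lower. It was the only one 1.5-fold apart, which is 5.26% of the 19, against 5.23% of all genes kept that were 1.5-fold lower. With the median of 50 neighbouring genes subtracted it stood at -0.92. The factors it works with differed less, NRF1 by 0.17, GABPA by -0.32, ESRRA by -0.12 and TFAM, which packs mitochondrial DNA, by 0.08. With neighbours subtracted NRF1 stood at 0.44, GABPA at -0.43, ESRRA at -0.01 and TFAM at -0.02. The GABPA cluster is numbered between those of OGDH and MDH2 on chromosome 7, although GABPA lies on 21. Its value of -0.43 was taken against neighbours on 21, where all genes kept had a median of 0.08. Those of chromosome 7 had a median of -0.22, so this subtraction may not apply to the cluster measured. The hypoxia-inducible factors differed in opposite directions. HIF1A had 12.57 in Kindlin-2 shRNA cells and 12.07 in control cells (0.51), and EPAS1 had 11.12 in Kindlin-2 shRNA cells and 11.62 in control cells (-0.50).

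The lists of enzymes that feed the chain had medians below 0 before chromosome position was taken into account. Of 11 genes of the tricarboxylic acid cycle 5 were above 0 and 6 below, from IDH3B (0.53, also on chromosome 20) to MDH2 (-0.45). Their median was -0.08, and 0.06 with neighbours subtracted. Of 10 genes around pyruvate dehydrogenase 7 were below 0 (median -0.13, and -0.14 with neighbours subtracted). Among them the kinase PDK1 had 8.77 in Kindlin-2 shRNA cells and 7.58 in control cells (2.28-fold higher), and the kinase PDK2 had 8.42 in Kindlin-2 shRNA cells and 9.06 in control cells (1.55-fold lower). At 1.5-fold, 10% of these 10 genes were higher and 10% lower, against 5.1% and 5.23% of all genes kept. Of 17 genes of coenzyme Q synthesis and entry 12 were below 0 (median -0.12, and -0.11 with neighbours subtracted), and none was 1.5-fold apart. Carriers of the inner membrane and porins were mostly above 0 (6 of 7, median 0.21, and 0.12 with neighbours subtracted). The exception was SLC25A3 on chromosome 12, which brings in phosphate for ATP synthesis. It had 11.04 in Kindlin-2 shRNA cells and 11.44 in control cells (-0.41, and -0.31 with neighbours subtracted).

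**Figure D5:**
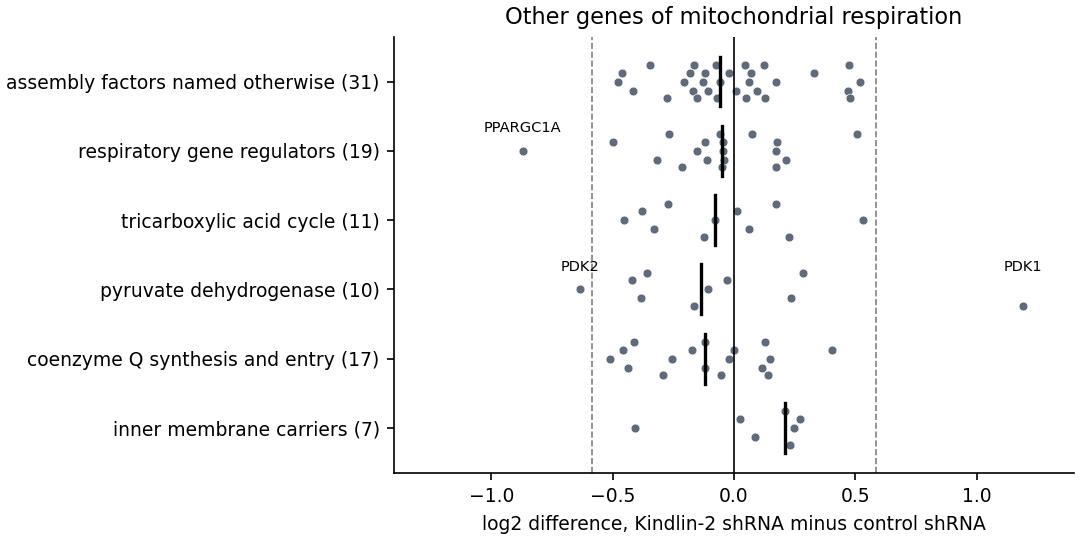
Log2 difference of the other genes of mitochondrial respiration kept, by list, with the number of genes in brackets. Black bars are medians and dashed lines mark 1.5-fold. PPARGC1A (-0.87) and PDK2 (-0.64) lie below the lower line and PDK1 (1.19) above the upper one.

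Set beside other large protein assemblies, the median of the oxidative phosphorylation genes (-0.11) lay between those of mitochondrial ribosomal proteins (-0.05 over 72 genes kept) and cytosolic ribosomal proteins (-0.16 over 62). Proteasome subunits had a median of 0.13 over 34 genes. The SD of the difference was alike in these lists, at 0.21 for the oxidative phosphorylation genes, 0.21 for mitochondrial ribosomal proteins, 0.22 for cytosolic ribosomal proteins and 0.25 for proteasome subunits. With 1 array a group these differences between lists could not be tested.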

How the data were processed

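Groups were taken from the shRNA label, with 1 array each. The submitters' processing notes name RMA and Affymetrix Expression Console (version 1.4.1) for the values the authors deposited. The deposited table holds log2 values of 33297 transcript clusters, between 2.13 and 14.04. RMA draws dim values together, which shrinks their differences. The sources used here do not say which arrays were normalised together. Precision is limited by the number of arrays.

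Symbols came from GEO's platform annotation (19460 clusters with 1 symbol, 1754 with several, 12083 with none), and the 97 symbols chosen equalled those of RefSeq. Clusters with several symbols were left out, and the brighter cluster stood for a gene with several (8 of the 97). Some genes of these complexes were not analysed here. Differences were computed in Python 3.11.15 with pandas 2.3.3 and statsmodels 0.14.6 (loess span 0.3), and the procedure was tested on simulated data. A gene was kept when its higher value reached the median of all values. Members were called at 1.5-fold.

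The genes and lists were chosen with earlier results of these data known. Every member could be named. Values were given for FERMT2, members 1.5-fold apart, up to 3 extremes a direction in each complex and in the assembly factors, fixed core subunits and isoforms, 7 fixed regulators, and 1.5-fold members of the other lists, and further genes were named after their values were seen. Alternatives varied the fold, floor, cluster rule, normalisation, chromosome correction, summary and member rule. The chromosome of a cluster's number was read from the 10 annotated clusters on either side.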

Additional observations from a re-analysis of the deposited data

How the results depend on the processing

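No paired analysis was possible because each group held 1 array. The median of the 86 genes kept stayed between -0.12 and -0.09 under the 14 alternatives that apply to it. The medians of complexes I, III, IV and V kept their sign under these alternatives. The count at least 1.5-fold lower was 2 (NDUFB2 and COX14) in the reported setting, 15 at a limit of 0.32 on the log2 scale and 0 at 2-fold. It was 0 with chromosome medians or the median of 50 neighbours subtracted, since both genes lie in stretches that were lower as a whole. The count 1.5-fold higher stayed 0 throughout. Complex II moved to 0.095 with the mean over clusters, and to 0.095 with clusters numbered on the gene's own chromosome (chosen after seeing the data), both through SDHC. Complex V moved to -0.22 and the assembly factors to -0.15 with a floor at the 75th percentile. The assembly factors moved to -0.12 with neighbours subtracted, and the cause of either shift was not tested. Of 1014 values of single genes under alternatives, 956 moved by less than 0.1 and 58 by more, and none that was 1.5-fold apart changed sign. A change of floor or symbol rule cannot move the value of a single gene. A change of cluster rule can move only the 8 genes with 2 clusters. Many of the 956 were thus fixed in advance and do not measure stability. The table carried no detection calls, so a gene under the floor may be dim or absent.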

Other observations

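Related genes outside the symbol rule added values of their own, chosen after their values were seen. COXFA4 (formerly NDUFA4), a subunit of complex IV, had 8.98 in Kindlin-2 shRNA cells and 9.18 in control cells (-0.20). COXFA4L2 (NDUFA4L2), a paralog induced by hypoxia-inducible factors and known for high levels in clear cell renal carcinoma, had 6.67 in Kindlin-2 shRNA cells and 6.81 in control cells (-0.13), close to the floor of 6.52. COXFA4L3 (NMES1), a paralog known to take the place of COXFA4 in complex IV of inflamed cells, had 6.85 in Kindlin-2 shRNA cells and 6.02 in control cells, a difference of 0.82 or 1.77-fold higher, with the control value under the floor.

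COX17, the copper chaperone of complex IV, shares both of its clusters with POPDC2 in the annotation. They gave 8.70 and 7.90 in Kindlin-2 shRNA cells and 8.21 and 7.48 in control cells, differences of 0.49 and 0.42. Signals of the 2 genes cannot be told apart there. The pseudogene ATP5F1EP2 had the highest difference of all 86 genes kept, at 9.38 in Kindlin-2 shRNA cells and 9.07 in control cells (0.31). It stood at 0.06 with the median of 50 neighbouring genes subtracted, where NDUFB6 was highest at 0.40.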
